A study of Mus musculus with 26 samples.

Results

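The genes described here are 7 matrix metalloproteases (Mmp2, Mmp8, Mmp9, Mmp12, Mmp13, Mmp14 and Mmp19) and 3 tissue inhibitors of metalloproteases (Timp1, Timp2 and Timp3), 10 of the 49997 mouse genes with a RefSeq span. For each of 3 chromatin immunoprecipitation (ChIP-seq) targets, peaks of all libraries were merged into regions. A region belonged to a gene when it overlapped the gene's mm10 span plus 1 kb. Intergenic HA and H3K27ac regions within 50 kb were added to the nearest gene. This gave 19 of 42505 HA regions, 19 of 46133 RNA polymerase II (Pol II) regions and 18 of 77715 H3K27ac regions. The genes were chosen by family, whether or not they had peaks. Their regions were selected on peak calls and normalized tags over all groups together, so the presence of a region is a description and was not tested.

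The cells were RAW264.7, a mouse macrophage line, in 2 stable lines that made HA-tagged Nur77 or GFP on doxycycline. Both lines received 50 ng/ml doxycycline for 18 h, so all groups were induced. Cells of both lines either had no further treatment or 500 ng/ml lipopolysaccharide (LPS) for 1 h. HA, which marks the tagged Nur77, was mapped in the Nur77 line only, in 3 untreated and 3 LPS libraries. Pol II and H3K27ac, the acetylated histone mark of active promoters and enhancers, were each mapped in 2 libraries per line and condition. Each construct was carried by 1 stable line, so an effect of Nur77 and any other difference between the lines cannot be told apart. The labels do not say that replicates were separate cultures, and p-values then measure only the spread between these libraries.

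Matrix metalloproteases are zinc endopeptidases that cut collagens, elastin and other matrix proteins, and they are made as inactive precursors. TIMP proteins block them by binding the active site. Mmp14 is held in the cell membrane, where it activates the Mmp2 precursor in a complex that also contains Timp2. Macrophages release Mmp9 and Mmp12 at sites of inflammation, and LPS is known to change metalloprotease genes in these cells. Nur77 (gene Nr4a1) is an orphan nuclear receptor that binds a motif called NBRE.

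The RefSeq promoter table held a start site for 7 of the 10 genes and none for Mmp2, Mmp9 and Mmp19. The 250 bases before the start site (GRCm38.p6, the mm10 assembly) are shown for 2 genes with Pol II over the start site in all 8 libraries (Mmp14 and Timp2), for Mmp12, where 3 of 4 H3K27ac regions had peaks in the GFP line only, and for Mmp13, which had no peak of any target. They lie at chr14:54431348-54431597 (+ strand) for Mmp14, chr11:118355412-118355661 (- strand) for Timp2, chr9:7347124-7347373 (+ strand) for the second of 2 Mmp12 start sites and chr9:7272264-7272513 (+ strand) for Mmp13. Capitals mark matches to the AP-1 motif (TGANTCA) and, in the Mmp13 window alone, a match to the TATA box motif (TATAAA):
Mmp14: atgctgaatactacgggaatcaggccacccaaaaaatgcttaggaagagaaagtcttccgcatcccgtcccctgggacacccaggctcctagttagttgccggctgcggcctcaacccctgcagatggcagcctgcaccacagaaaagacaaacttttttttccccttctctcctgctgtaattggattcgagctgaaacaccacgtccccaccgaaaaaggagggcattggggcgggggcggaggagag
Timp2: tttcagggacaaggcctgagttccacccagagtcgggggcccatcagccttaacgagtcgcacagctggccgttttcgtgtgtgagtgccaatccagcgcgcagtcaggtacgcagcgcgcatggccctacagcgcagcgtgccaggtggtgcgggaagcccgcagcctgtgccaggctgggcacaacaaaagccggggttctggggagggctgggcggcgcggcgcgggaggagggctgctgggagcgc
Mmp12: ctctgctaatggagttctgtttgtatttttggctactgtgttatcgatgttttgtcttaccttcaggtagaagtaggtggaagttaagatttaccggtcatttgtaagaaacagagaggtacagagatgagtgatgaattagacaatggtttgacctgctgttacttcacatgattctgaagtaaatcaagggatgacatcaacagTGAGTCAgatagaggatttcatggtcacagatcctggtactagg
Mmp13: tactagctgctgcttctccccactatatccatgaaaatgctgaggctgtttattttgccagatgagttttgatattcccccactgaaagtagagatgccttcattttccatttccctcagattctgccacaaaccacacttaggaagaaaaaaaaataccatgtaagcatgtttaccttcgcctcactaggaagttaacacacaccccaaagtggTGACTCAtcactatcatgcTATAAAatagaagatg
Both strands were searched for AP-1, TATA, NBRE (AAAGGTCA), CRE (TGACGTCA) and the kappa B motif by name. AP-1 began 44 bases before the Mmp12 start and 35 bases before the Mmp13 start, and TATA began 16 bases before the Mmp13 start. These matches did not overlap each other. No other match was found in the 8 windows of the 7 genes. Among 32851 windows of the same length, 6.75% held AP-1, 12.4% TATA, 1.34% NBRE, 1.55% CRE and 3.9% kappa B. CpG dinucleotides numbered 21 in the Timp2 window, 18 in Timp3 and 10 in Mmp14, against 0 and 2 in the 2 Mmp12 windows, 1 in Mmp13, 4 in Mmp8 and 6 in Timp1, and the median over all windows was 6.

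The HA libraries had 6.41 to 18.2 M mapped tags, those of H3K27ac 22.3 to 28.4 M and those of Pol II 11.9 to 23.1 M. HA replicate 3 had narrower peaks in both conditions (medians of 343 and 427 bp) than the other HA libraries (827 to 1017 bp). One Pol II library, replicate 1 of untreated Nur77 cells, had a recorded fragment length of 1550 bp, while the other 7 had 174 to 318 bp. Macrophage markers had a lead region in all libraries for 9 of 10 genes in Pol II and 10 of 10 in H3K27ac. Of 6 fibroblast markers none had one, and Col1a1, Col1a2, Pdgfra, Dcn and Lum had no region at all. Of 5 T and B cell, 4 endothelial and 4 epithelial markers, 1, 2 and 0 had one in Pol II and 1, 2 and 2 in H3K27ac. Signal is given as normalized tags, for a library size of 10000000 mapped tags. All peaks that a library had within a region were added up, and a scaling factor per library was applied. Changes are log2 differences of tags plus 1 with their standard error (SE), tested by limma at a false discovery rate of 0.05. Tests were limited to regions with a peak in all libraries of that target. A library without one is given as no peak, which means that no peak was called there. Its tags there are not known, and no peak sets no upper bound on them. The smallest called peaks had 4.26 to 6.69 tags in H3K27ac, 4.76 to 6.87 in Pol II and 7.72 to 14.1 in HA libraries.

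Regions were spread unevenly over the genes. Timp2 had 13 regions in all (5 HA, 4 Pol II and 4 H3K27ac), Mmp9 had 12 and Mmp14 had 7. Mmp13 and Timp1 had none of any target, and Timp3 had a single HA peak of 16.1 tags in 1 of 6 libraries, at a site that also lies in Syn3. Mmp8 had no Pol II region. Tests were possible at 6 HA, 7 Pol II and 11 H3K27ac regions of Mmp2, Mmp9, Mmp12, Mmp14 and Timp2, whereas 26.4%, 37.0% and 34.9% of all HA, Pol II and H3K27ac regions could be tested.

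Mmp14 (chr14:54431598-54442456, + strand) had the largest LPS changes among these genes. Pol II and H3K27ac rose at all 5 of its regions in both lines. The Pol II region over the start site (chr14:54423063-54435791) covers the Mmp14 promoter and the neighbouring gene Mrpl52, and it also overlapped a region called in input. Its level was 406 and 437 tags in untreated GFP cells and 1942 and 2418 after LPS. In Nur77 cells it was 411 and 560 untreated and 2561 and 3785 after LPS. No LPS library of either line came near an untreated one. The log2 change was 2.36 ± 0.24 (SE) in the GFP line (adjusted p = 0.00081, limma) and 2.70 ± 0.24 in the Nur77 line (adjusted p = 0.00032). Called peaks covered 7.85 kb before and 12.1 kb after LPS in GFP cells, and the density rose from 53.7 to 181 tags per kb. In Nur77 cells the density went from 59.5 to 252 tags per kb.

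Pol II at the 3' end of Mmp14 (chr14:54440655-54449706) was low before LPS. This region reaches past the gene's last base to within 1 kb of Gm24424, and its centre lies 13.6 kb after the start site, past the gene. Pol II there measured 11.1 and 17.7 tags in untreated GFP cells and 679 and 1143 after LPS. In the Nur77 line it measured 6.66 and 64.8 tags untreated and 1030.0 and 1727 after LPS. The groups did not overlap in either line, but the untreated Nur77 libraries differed widely. The log2 change was 5.87 ± 0.86 (adjusted p = 0.0036) in GFP cells and 5.89 ± 0.86 (adjusted p = 0.0023) in Nur77 cells. The Nur77 value was 4.33 without untreated replicate 1 and 7.44 without untreated replicate 2. The covered length grew from 0.654 to 8.20 kb in GFP cells and from 1.93 to 8.74 kb in Nur77 cells, so the summed tags hold both more covered length and a higher density. Density went from 22.1 to 111 and from 16.3 to 157 tags per kb.

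Between the lines, Pol II at Mmp14 did not pass the test. After LPS the start region was 0.52 ± 0.24 higher on the log2 scale in the Nur77 line (adjusted p = 0.31). With the replicate number as a block it passed, at the same size with an SE of 0.14 (adjusted p = 0.043), in a fit that called 12.8% of all tested Pol II regions (6.18% higher). The LPS response of Pol II did not differ beyond error between the lines at either region, at 0.34 ± 0.34 and 0.02 ± 1.21 (adjusted p = 1.0 for both).

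H3K27ac at Mmp14 lay in 3 regions, centred 4.2 kb before the start site, 2.8 kb after it and 13.1 kb after it, and none of its called peaks covered the start site itself. The upstream region (chr14:54423629-54431259), which holds Mrpl52, had 201 and 187 tags in untreated GFP cells and 874 and 819 after LPS. Nur77 cells had 281 and 252 tags untreated and 942 and 952 after LPS. Its log2 change was 2.12 ± 0.07 (adjusted p = 2.9e-09) in GFP cells and 1.83 ± 0.07 (adjusted p = 7.8e-09) in Nur77 cells. Before LPS it was 0.46 ± 0.07 higher in the Nur77 line (adjusted p = 0.0006), and as tags per base the line difference was 0.02 (adjusted p = 0.94). The region inside the gene (chr14:54432933-54435876) was weaker and also rose. It went from 15.3 ± 0.775 to 70.0 ± 4.73 tags (SD, n = 2) in GFP cells and from 21.8 ± 0.653 to 87.02 ± 2.22 (SD, n = 2) in Nur77 cells, changes of 2.12 ± 0.18 and 1.95 ± 0.18 (adjusted p = 1.3e-06 and 2.5e-06).

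The H3K27ac region at the 3' end (chr14:54439769-54449710) differed between the lines. It also reaches past the last base of Mmp14 to within 1 kb of Gm24424. GFP cells had 42.7 and 38.2 tags untreated and 532 and 439 after LPS. Nur77 cells had 95.7 and 98.3 tags untreated and 636 and 668 after LPS. The Nur77 line was thus higher in both conditions, by 1.24 ± 0.10 untreated (adjusted p = 5.3e-06) and by 0.43 ± 0.10 after LPS (adjusted p = 0.0064), the latter falling to 0.27 (adjusted p = 0.087) without GFP LPS replicate 2. The LPS change was 3.55 ± 0.10 in GFP cells and 2.74 ± 0.10 in Nur77 cells, and the difference of -0.81 ± 0.15 passed the test (adjusted p = 0.035). It no longer passed when any of 7 of the 8 libraries was left out in turn (the exception being GFP LPS replicate 2). Called peaks covered 1.62 kb before and 8.48 kb after LPS in GFP cells, and 4.35 and 9.49 kb in Nur77 cells. As density, the values were 24.9 and 57.2 tags per kb in GFP cells and 22.3 and 68.8 in Nur77 cells, and on that scale the line difference before LPS was -0.13 and the difference in response was 0.42 (adjusted p = 0.55 and 0.46). The line difference after LPS was 0.29 as density (adjusted p = 0.11). The difference in response also missed the threshold without scaling (-0.84, adjusted p = 0.052), with a pseudocount of 10 (-0.66, adjusted p = 0.053) and without the filter on called libraries (adjusted p = 0.1).

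**Figure D1:**
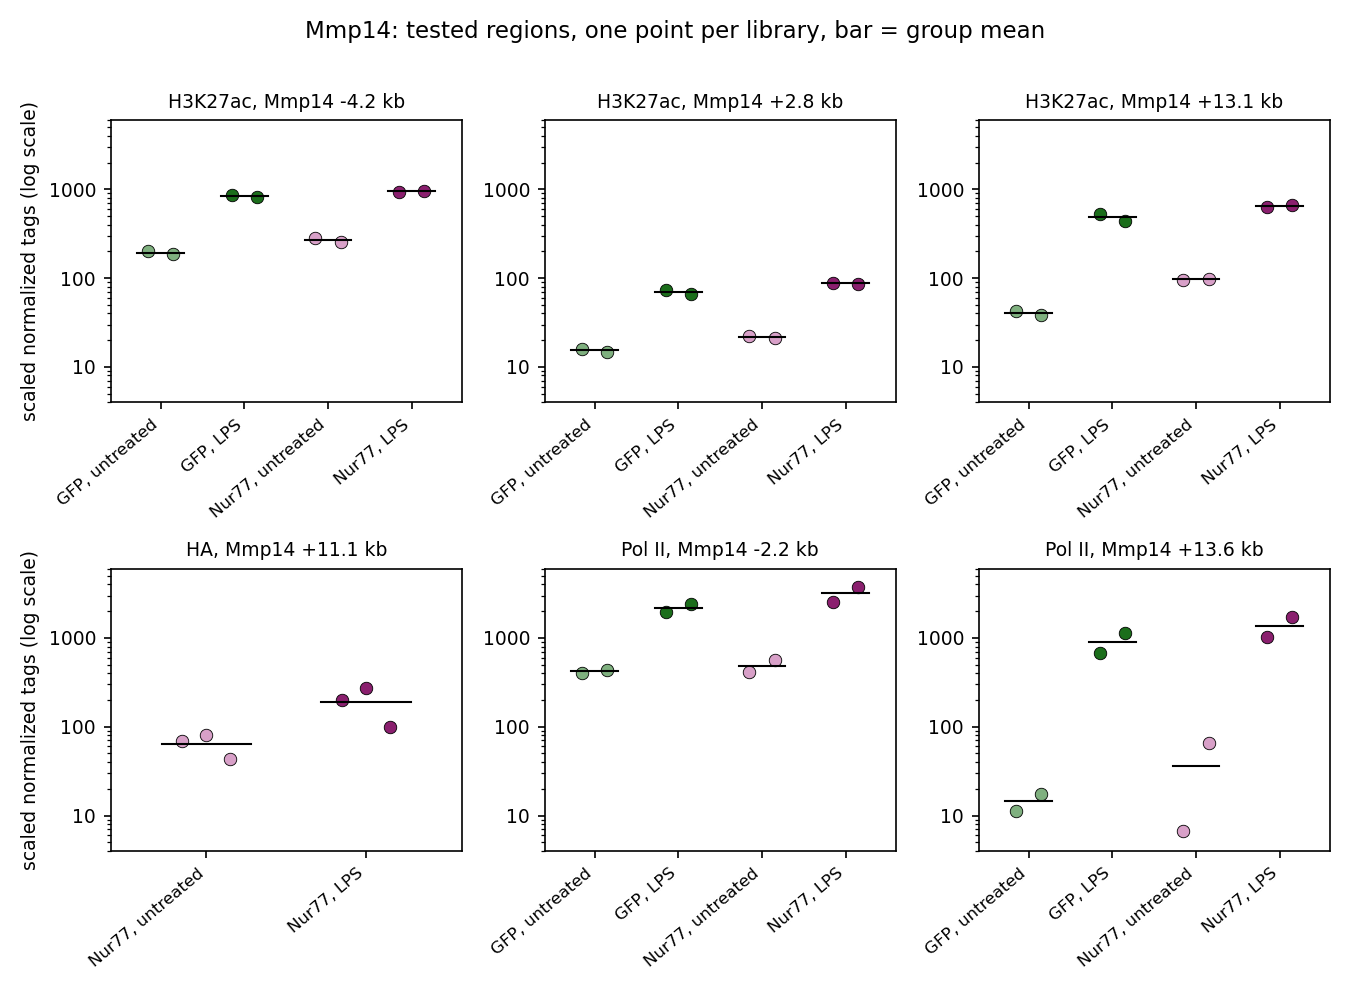
Scaled normalized tags at the 6 tested Mmp14 regions, with target and distance of the region's centre from the start site in each title (log axis). Points are libraries, bars are group means, and in the Pol II and H3K27ac panels all LPS libraries lie above all untreated libraries.

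HA-Nur77 sat at 2 places at Mmp14. The site at the 3' end (chr14:54442233-54443249) lay inside the 3' Pol II and H3K27ac regions described above. Its centre, 11.1 kb after the start site, lay past the last base of the gene, which spans 10.86 kb. It had 68.3, 81.4 and 43.0 tags untreated and 198, 271 and 98.5 after LPS. Each LPS library was higher than all 3 untreated ones. The log2 change was 1.47 ± 0.39 and missed the threshold (adjusted p = 0.059, limma). With the replicate number as a block the SE was 0.14 and the site was called (adjusted p = 2.5e-12), in a fit that calls 40.5% of all tested HA regions (20.4% higher and 20.1% lower) where the unblocked fit calls 4.62% (3.27% higher and 1.35% lower). It was also called without untreated replicate 2 (1.65, adjusted p = 0.041) or without LPS replicate 3 (1.89, adjusted p = 0.042). The other site (chr14:54433897-54434851), 2.8 kb after the start, was called in replicates 1 and 3 only. It had 25.3 and 29.6 tags there untreated and 42.0 and 85.0 after LPS, and was not tested.

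Timp2 (chr11:118301061-118355411, - strand), the inhibitor that also helps Mmp14 activate Mmp2, carried less signal near its start after LPS. Pol II over the start site (chr11:118354201-118356506) was 67.9 and 75.0 tags in untreated GFP cells and 37.1 and 49.7 after LPS. In Nur77 cells it was 86.3 and 140 tags untreated and 47.7 and 47.3 after LPS. LPS libraries lay below untreated ones in both lines. The change passed in the Nur77 line (-1.20 ± 0.32, adjusted p = 0.026) and not in the GFP line (-0.72 ± 0.32, adjusted p = 0.16). The 2 responses differed by -0.47 ± 0.46 (adjusted p = 1.0), which did not pass. The Nur77 call was lost without untreated replicate 2 (-0.85, adjusted p = 0.19) and without LPS replicate 1 or 2 (-1.19 and -1.18, adjusted p = 0.088 for both). Covered length in Nur77 cells was 1.98 kb untreated and 0.851 kb after LPS, with 59.5 and 56.6 tags per kb, and on that scale the change was -0.21 (adjusted p = 0.72).

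H3K27ac over the Timp2 start (chr11:118354584-118356140) fell with LPS in both lines. It was 24.9 and 22.0 tags in untreated GFP cells and 10.8 and 10.5 after LPS, a change of -1.07 ± 0.25 (adjusted p = 0.0033). In Nur77 cells it was 36.9 and 41.5 tags untreated and 14.2 and 15.7 after LPS, a change of -1.33 ± 0.25 (adjusted p = 0.00069). The groups did not overlap, and all 8 fits that left out a library kept both calls. Before LPS the Nur77 line was 0.72 ± 0.25 higher (adjusted p = 0.045), a call that the block (adjusted p = 0.061) or leaving out any 1 of the 4 untreated libraries (0.63 to 0.81, adjusted p up to 0.23) ended.

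A site inside the first part of Timp2, about 6.4 kb after the start, carried Pol II (chr11:118347954-118349982), H3K27ac (chr11:118347820-118349742) and, in 3 of 6 libraries, HA. Pol II there was 67.0 and 57.8 tags in untreated GFP cells and 24.3 and 29.2 after LPS. In Nur77 cells it was 80.6 and 85.6 tags untreated and 16.9 and 24.4 after LPS. It fell by 1.98 ± 0.32 in Nur77 cells (adjusted p = 0.0034). The fall of 1.19 ± 0.32 in GFP cells (adjusted p = 0.035) lost its call without any 1 of the 4 GFP libraries or either untreated Nur77 library, with changes of -1.06 to -1.33 and adjusted p up to 0.17, and as density (-0.81, adjusted p = 0.084). H3K27ac at this site was 35.2 and 32.7 tags in untreated GFP cells and 21.6 and 26.6 after LPS, a change that did not pass (-0.48 ± 0.25, adjusted p = 0.13). It was called lower as density (-0.48, adjusted p = 0.016, limma) and without scaling (-0.80, adjusted p = 0.02). Without Nur77 LPS replicate 1 or 2 the GFP change was -0.50 in each fit. Nur77 cells had 57.5 and 65.4 tags untreated and 24.9 and 44.05 after LPS. That fall of 0.87 ± 0.25 (adjusted p = 0.012) was lost without untreated replicate 2 (-0.78, adjusted p = 0.082) or LPS replicate 1 (-0.48, adjusted p = 0.11). Untreated Nur77 cells were higher than untreated GFP cells here by 0.84 ± 0.25 (adjusted p = 0.027), and leaving out any 1 of the 4 untreated libraries ended that call, with changes of 0.75 to 0.93 and adjusted p up to 0.15.

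Far from the start, Timp2 behaved otherwise. A region 43.0 kb into the gene (H3K27ac, chr11:118310472-118314293) had 300 and 321 tags in untreated GFP cells and 436 and 414 after LPS, and 288 and 316 in untreated Nur77 cells and 441 and 395 after LPS. It rose by 0.45 ± 0.08 in GFP cells (adjusted p = 0.00054) and 0.47 ± 0.08 in Nur77 cells (adjusted p = 0.0004), and neither call held without scaling between libraries (0.12, adjusted p = 0.23 and 0.25). As density the Nur77 change was 0.26 (adjusted p = 0.058). Pol II at this place did not pass in either line (0.35 ± 0.29 and 0.30 ± 0.29, adjusted p = 0.46 and 0.48). HA had 50.5 ± 6.74 tags there untreated and 55.2 ± 7.25 after LPS (SD, n = 3), a change of 0.13 ± 0.26 (adjusted p = 0.83). Upstream of the gene, a wide H3K27ac region (chr11:118361155-118367171, 5.74 kb from the span) held 467 ± 13.1 tags in untreated and 477 ± 0.429 in LPS GFP cells, and 525 ± 19.7 and 470 ± 2.44 in Nur77 cells (SD, n = 2). The Nur77 change of -0.16 ± 0.06 was called (adjusted p = 0.043), but not with the block (adjusted p = 0.056) nor without any 1 of the 4 Nur77 libraries (-0.13 to -0.20, adjusted p up to 0.24), and as density its adjusted p was 0.24.

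**Figure D2:**
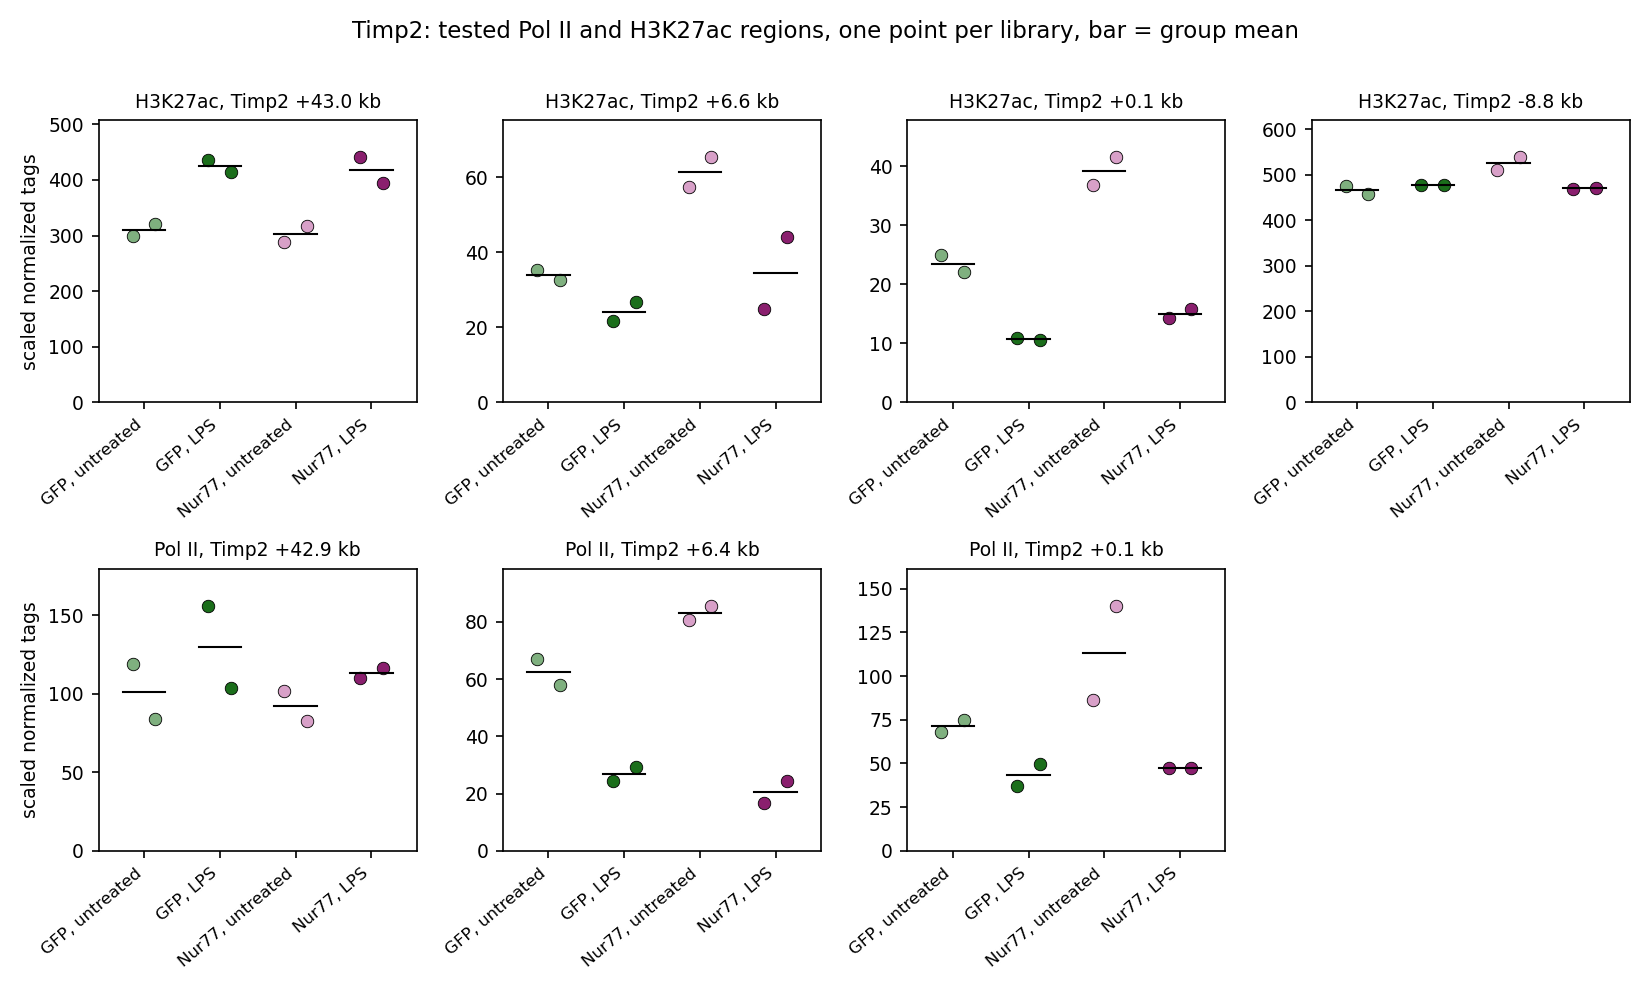
Scaled normalized tags at the 7 tested Pol II and H3K27ac regions of Timp2, with the distance of each region's centre from the start site (linear axes from 0). At the start and 6.4 to 6.6 kb inside the gene the LPS group means are lower than the untreated ones, while 43.0 kb inside the gene they are higher.

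Mmp12, the macrophage elastase gene (chr9:7344397-7360461, + strand, with 2 start sites), was marked differently in the 2 lines. H3K27ac over the gene (chr9:7343493-7347337) was 66.6 and 57.4 tags in untreated and 40.5 and 34.9 in LPS GFP cells, with no peak in any of the 4 Nur77 libraries. The regions centred 3.4 and 13.1 kb upstream (chr9:7340250-7341738 and chr9:7330259-7332355) were likewise called in all 4 GFP and 0 of 4 Nur77 libraries, at 9.30 to 21.6 and 7.57 to 33.09 tags. The same 3 regions had this pattern in the stricter peak lists. Of all H3K27ac regions, 0.766% had a peak in all GFP and no Nur77 libraries. One region, 7.3 kb upstream (chr9:7335808-7338440), was called in all 8 libraries and could be tested. It had 84.3 and 86.2 tags in untreated GFP cells and 30.2 and 27.8 in untreated Nur77 cells, and 76.5 and 65.4 against 16.4 and 20.7 after LPS. Every Nur77 library lay below every GFP library, by -1.53 ± 0.18 untreated (adjusted p = 7.5e-05) and -1.89 ± 0.18 after LPS (adjusted p = 1.5e-05).

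LPS lowered H3K27ac at this Mmp12 upstream region in the Nur77 line (-0.63 ± 0.18, adjusted p = 0.012), a call lost without untreated replicate 1 (-0.57) or LPS replicate 1 (-0.47, adjusted p = 0.068 for both) and, as density, at -0.04 (adjusted p = 0.85). The GFP change was -0.27 ± 0.18 (adjusted p = 0.24), and the 2 responses did not differ in the test (-0.36 ± 0.26, adjusted p = 0.61). The HA site inside this region (chr9:7336750-7337766) had 16.5, 38.6 and 17.9 tags untreated and 22.3, 55.6 and 21.4 after LPS, a change of 0.39 ± 0.41 (adjusted p = 0.65). Pol II peaks on Mmp12 were few and came from GFP replicate 2 only. The strongest, over the second start site whose AP-1 match is shown above (chr9:7347045-7348794), had 9.15 tags untreated and 23.4 after LPS.

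Mmp9, the gelatinase that macrophages secrete (chr2:164940326-164955850), had 2 tested H3K27ac regions. The region near the low end of the span (chr2:164940261-164943818) had 66.4 and 65.2 tags in untreated and 94.1 and 79.6 in LPS GFP cells, and 64.1 and 67.6 in untreated and 45.5 and 62.3 in LPS Nur77 cells. Before LPS the line difference was within its error (SE 0.17, adjusted p = 1.0), and after LPS the Nur77 line was 0.69 ± 0.17 lower (adjusted p = 0.0068). That call was lost without GFP LPS replicate 1 (-0.57, adjusted p = 0.062) or Nur77 LPS replicate 1 (-0.46, adjusted p = 0.054) and as density (-0.33, adjusted p = 0.1). The change with LPS itself did not pass in GFP cells (0.39 ± 0.17, adjusted p = 0.066) or in Nur77 cells (-0.30 ± 0.17, adjusted p = 0.14). Without either Nur77 LPS library the GFP change passed (0.38 and 0.37, adjusted p = 0.034 and 0.038), and without Nur77 LPS replicate 2 the Nur77 change passed (-0.54, adjusted p = 0.018). The difference of the responses was -0.69 ± 0.23 (adjusted p = 0.23).

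Inside the far end of the Mmp9 span (H3K27ac, chr2:164952031-164953765, 12.6 kb from the low end) the Nur77 line was higher in both conditions. GFP cells had 5.67 and 7.04 tags untreated and 7.36 and 17.1 after LPS, against 47.0 and 46.7 and then 41.5 and 40.95 in Nur77 cells. All Nur77 libraries were above all GFP libraries. The difference was 2.71 ± 0.34 untreated (adjusted p = 0.0001) and 1.78 ± 0.34 after LPS (adjusted p = 0.0017). The untreated GFP values lay close to the smallest called peaks of the H3K27ac libraries (4.26 to 6.69 tags). LPS changes did not pass, at 0.75 ± 0.34 in GFP cells (adjusted p = 0.083, limma) and -0.18 ± 0.34 in Nur77 cells (adjusted p = 0.67). Over fits that left out a library, the GFP change ran from 0.19 to 1.285. Pol II at this place (chr2:164951664-164954389) had no peak in untreated GFP cells and 8.72 and 8.10 tags after LPS. In Nur77 cells it had 130 and 80.3 tags untreated and 108 and 71.95 after LPS, and was not tested. HA peaks were called there in 3 of 6 libraries, at 16.2 to 23.1 tags. The strongest HA site of Mmp9 lay elsewhere, 2.8 kb into the span (chr2:164942567-164943583), with 58.9, 87.9 and 123 tags untreated and 64.9, 130 and 114 after LPS. Its change was 0.20 ± 0.36 (adjusted p = 0.81), and the Pol II region over it did not pass in any of the 5 comparisons (smallest adjusted p = 0.27).

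**Figure D3:**
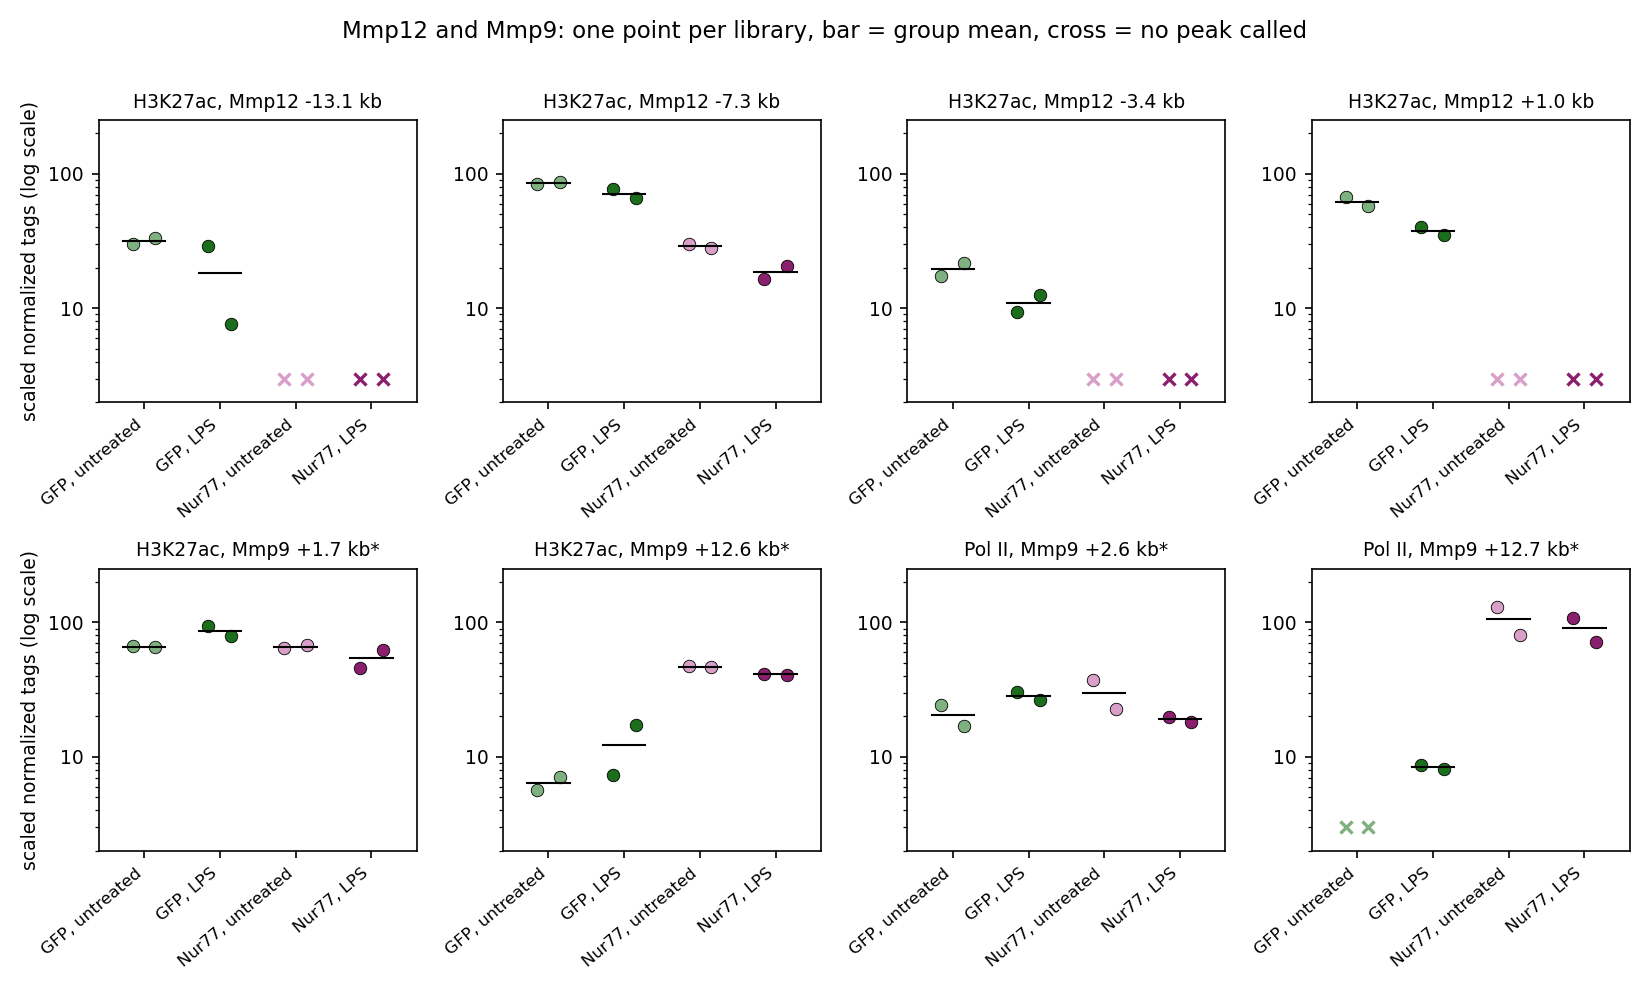
H3K27ac and Pol II at Mmp12 and Mmp9, in scaled normalized tags on a log axis, with the distance of the region's centre from the start site (Mmp12) or from the low end of the span (Mmp9, marked *). Crosses are libraries without a peak, drawn at a fixed height; in 3 Mmp12 panels these are the 4 Nur77 libraries, and in the Mmp9 panel at 12.7 kb the 2 untreated GFP libraries.

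Mmp2, the gelatinase that Mmp14 activates (chr8:92827290-92853421), had its 3 tested regions at the far end of its span, all over Gm45472. The Pol II and H3K27ac regions reach past the last base of Mmp2 and overlap Lpcat2 (chr8:92855313-92919279). None of the tested regions can thus be given to Mmp2 alone. Weaker peaks lay elsewhere. Pol II inside the gene (chr8:92839726-92840401) was called in 1 LPS library of each line, at 6.97 tags in GFP and 8.82 in Nur77 cells. HA upstream was called at chr8:92822030-92823046 in 2 of 6 libraries (17.5 and 20.6 tags) and at chr8:92809223-92809565 in 1 (21.8 tags). H3K27ac there (chr8:92852530-92857299) was 168 and 185 tags in untreated GFP cells and 276 and 262 in untreated Nur77 cells, and 194 and 182 against 256 and 249 after LPS. The Nur77 line was higher in every library, by 0.61 ± 0.08 untreated (adjusted p = 0.00017) and 0.43 ± 0.08 after LPS (adjusted p = 0.0017). LPS changes did not pass (0.09 ± 0.08 and -0.09 ± 0.08, adjusted p = 0.39 and 0.37). Without scaling between libraries both were called lower, at -0.24 in GFP cells and -0.44 in Nur77 cells (adjusted p = 0.045 and 0.0015). Pol II at this end ranged from 54.0 to 174 tags and did not pass in any comparison. The HA site (chr8:92852893-92853935) had 107, 74.5 and 68.8 tags untreated and 72.5, 64.05 and 53.0 after LPS, lower in each replicate number. The change of -0.38 ± 0.28 did not pass (adjusted p = 0.49), and with the block it did (SE 0.16, adjusted p = 0.046), in a fit that calls 20.1% of all tested HA regions lower. The block fit without both replicate 3 libraries did not call it (-0.41, adjusted p = 0.082).

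Mmp8 and Mmp19 could not be tested. Mmp8, the collagenase best known from neutrophils (chr9:7558429-7568486, + strand), had H3K27ac 9.1 kb after its start (chr9:7566653-7568337), in a stretch that Gm31751 also spans. It measured 30.9 and 37.0 tags in untreated GFP cells and 23.0 and 19.9 in untreated Nur77 cells. After LPS only GFP replicate 1 still had a peak, of 6.70 tags. HA at this site was called in 5 of 6 libraries, at 16.1 to 30.9 tags. Of 6 neutrophil markers, Elane and S100a8 had a lead region in all libraries and Ly6g, Mpo, S100a9 and Ngp had no region. Their part in the Mmp8 signal was not tested.

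Mmp19, a secreted metalloprotease (chr10:128790910-128800827), had Pol II at the low end of its span in 6 of 8 libraries (chr10:128790108-128793594). It was 90.3 and 18.1 tags in untreated and 64.8 tags and no peak in LPS GFP cells, and 31.4 and 24.1 untreated and 14.4 and no peak after LPS in Nur77 cells. LPS replicate 2 lacked the peak in both lines. H3K27ac was called there in 7 of 8 libraries (chr10:128790431-128794305), at 31.9 and 48.4 tags in untreated GFP cells, 15.8 tags and no peak after LPS, 46.9 and 49.3 in untreated Nur77 cells and 28.2 and 41.8 after LPS. Every called LPS value of H3K27ac lay below both untreated values of its line.

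The 6 tested HA sites gave 0 calls in limma (1 with an unadjusted p under 0.05, at Mmp14), and 4.62% of all tested HA regions were called. With the block 2 of 6 were called, Mmp14 higher and Mmp2 lower, no larger a share than the 40.5% (20.4% higher, 20.1% lower) over all tested HA regions. The median change of the 6 sites was 0.16, against -0.01 over all tested HA regions. Of the 19 HA regions, 15 overlapped H3K27ac (78.9%) and 13 overlapped Pol II (68.4%), close to the 79.8% and 65.5% of all HA regions.

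**Figure D4:**
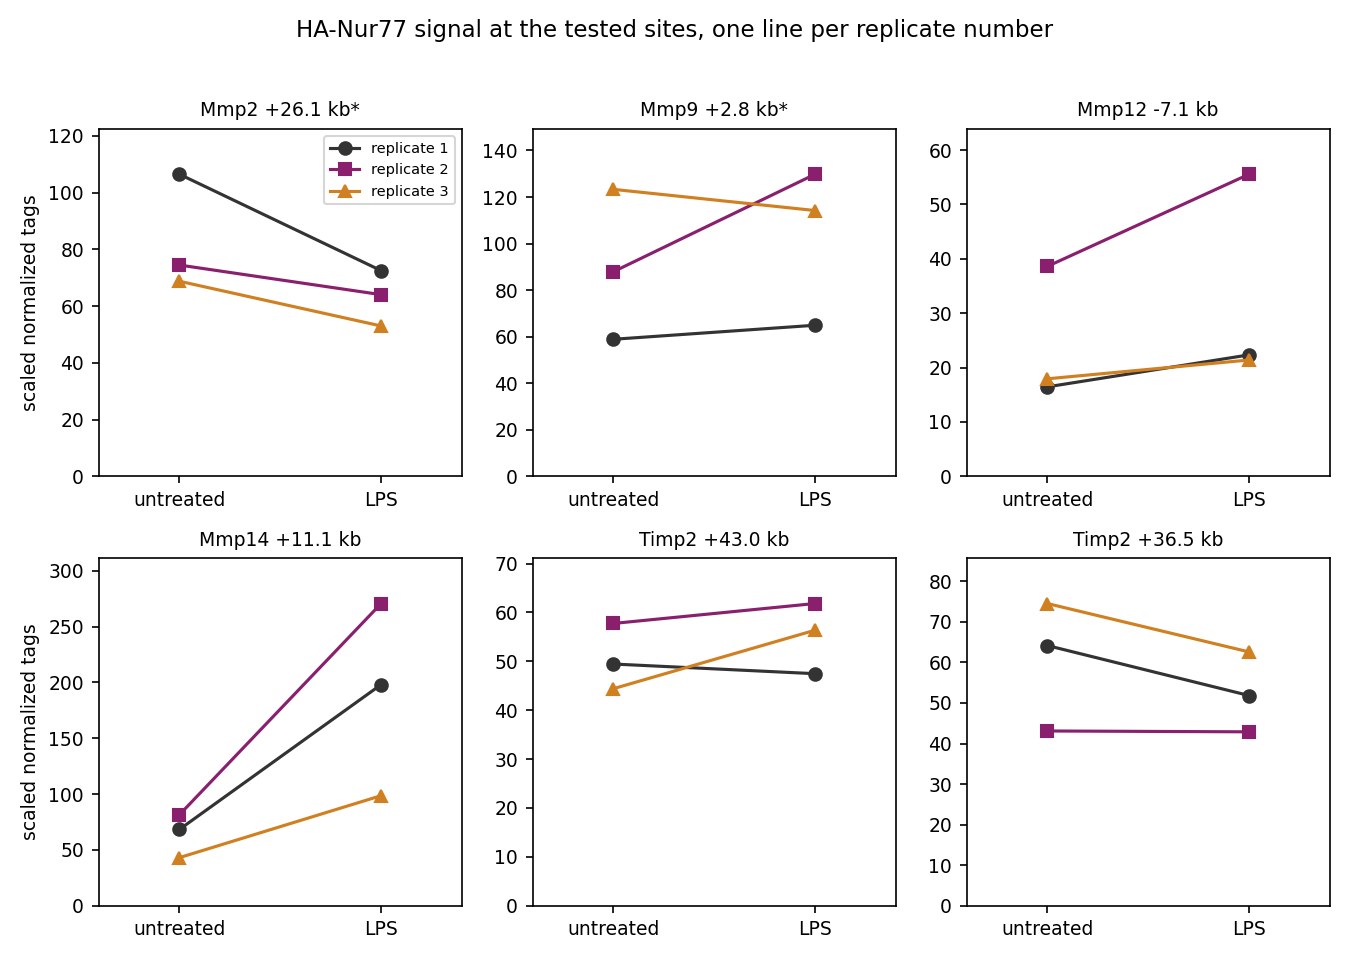
HA-Nur77 signal in scaled normalized tags at the 6 tested sites, untreated and after LPS, with a line for each replicate number (axes from 0, * marks distance from the low end of the span). All 3 lines go up at the Mmp14 site and at the Mmp12 site, which no fit called, and all 3 go down at the Mmp2 site and at the uncalled Timp2 site at 36.5 kb.

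Across the family, LPS changed Pol II at 3 of 7 tested regions in GFP cells (2 higher, 1 lower) and at 4 of 7 in Nur77 cells (2 higher, 2 lower). Over all tested Pol II regions 18.6% (9.78% higher, 8.79% lower) and 30.1% (14.4% higher, 15.7% lower) were called. The higher ones were both at Mmp14 and the lower ones all at Timp2. Of the Mmp14 regions, 1 covers Mrpl52 and the other reaches past the gene towards Gm24424, so neither can be given to Mmp14 alone. For H3K27ac, LPS changed 5 of 11 regions in GFP cells (4 higher, 1 lower) and 8 of 11 in Nur77 cells (4 higher, 4 lower), where 53.1% (27.3% higher, 25.8% lower) and 55.6% (28.1% higher, 27.5% lower) of all regions were called. Higher ones were the 3 Mmp14 regions and the Timp2 region 43.0 kb inside the gene. Of the Mmp14 regions, only the one inside the gene had no other gene within 1 kb. Without scaling between libraries the H3K27ac calls were 3 higher and 5 lower in GFP cells and 3 higher and 6 lower in Nur77 cells. Beside Mmp2, that setting also called the Mmp12 upstream region (-0.59), the Timp2 region 6.6 kb inside the gene (-0.80) and the one upstream of Timp2 (-0.30) lower in GFP cells, and the low end of Mmp9 (-0.65) lower in Nur77 cells (adjusted p = 0.021, 0.02, 0.0035 and 0.0079). Between the lines, Pol II gave 0 of 7 calls in limma untreated and 0 of 7 after LPS (0.17% and 1.42% of all regions, the latter 0.779% higher and 0.638% lower), with 0 unadjusted p under 0.05 in each. H3K27ac gave 7 of 11 untreated (6 higher and 1 lower in Nur77 cells) and 5 of 11 after LPS (3 higher, 2 lower), against 30.8% (15.9% higher, 15% lower) and 36% (16.8% higher, 19.2% lower) of all regions. The response differed between the lines at 1 of 11 H3K27ac regions (0.672% of all, 0.543% lower) and at 0 of 7 Pol II regions (0% of all, and 0 with an unadjusted p under 0.05).

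**Figure D5:**
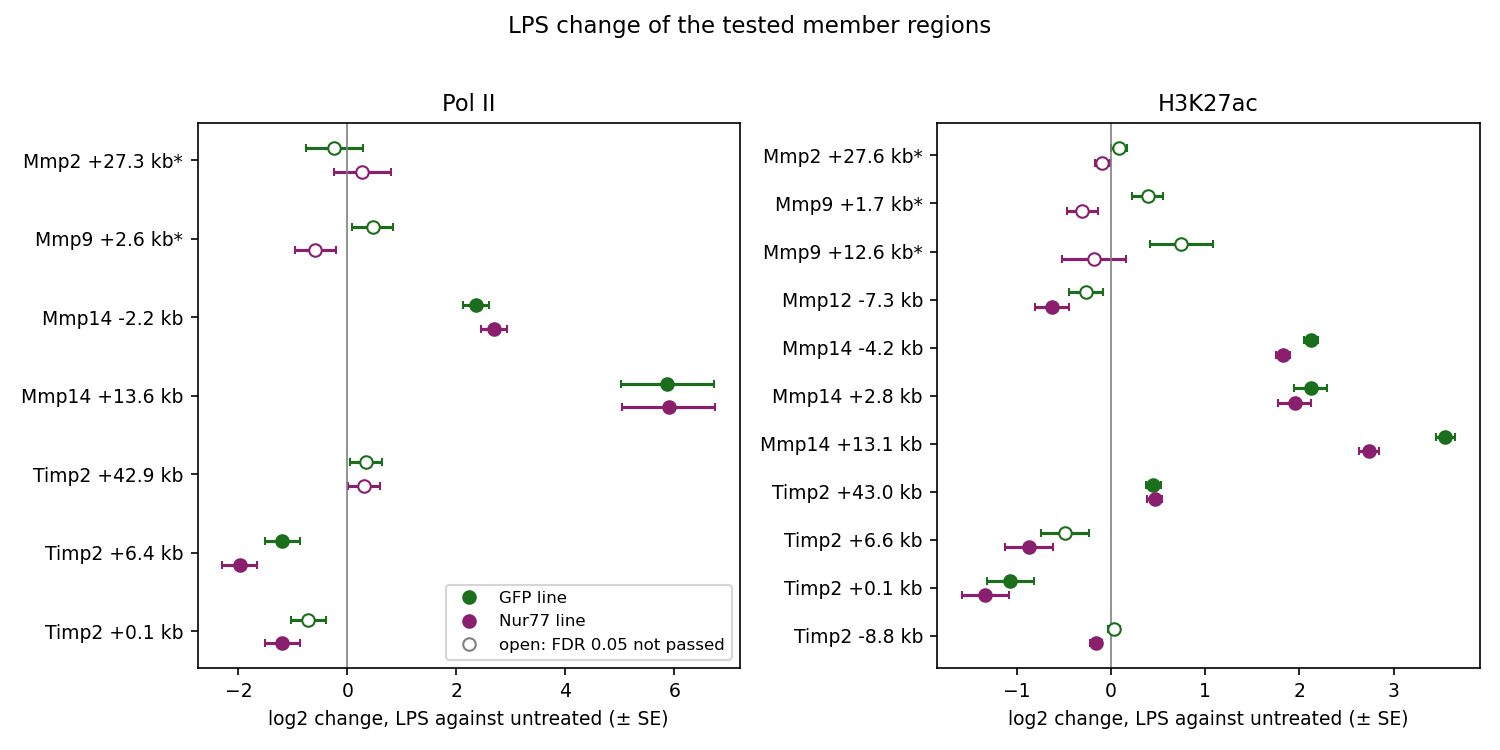
Log2 change with LPS (± SE) of the 7 tested Pol II and 11 tested H3K27ac regions in the GFP line (green) and the Nur77 line (purple), named by gene and distance of the centre from the start site (* from the low end of the span). Filled points passed a false discovery rate of 0.05. Mmp14 lies to the right in both panels and the Timp2 start to the left.

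Other genes of the pericellular proteolysis system were read through 4 lists of 53 genes. Each gene was read by its lead region, the one with the highest mean tags, and left out where that region was not tested. For Pol II, 11 of 24 such regions rose with LPS in GFP cells and 1 fell, and 12 rose and 1 fell in Nur77 cells. Over all tested Pol II regions 9.78% were higher and 8.79% lower in GFP cells, and 14.4% and 15.7% in Nur77 cells. With the block 13 rose and 1 fell in GFP cells, and 14 rose and 4 fell in Nur77 cells. Of all 17081 tested Pol II regions, that fit called 3056 higher and 3031 lower in GFP cells. In Nur77 cells it called 3971 higher and 4178 lower. For H3K27ac it was 14 higher and 5 lower of 26 in GFP cells and 13 higher and 6 lower in Nur77 cells, where 27.3% and 25.8% of all regions were higher and lower in GFP cells and 28.1% and 27.5% in Nur77 cells. Shares here and below cover all tested regions, weak ones and those away from genes included. The lists gave only the lead region of each gene, so the sets are unlike. The lists were also chosen with earlier results of these data known. The list of plasminogen activation and convertases had 3 of 5 Pol II and 6 of 7 H3K27ac regions higher in each line, with none lower. With the block 4 of 5 Pol II regions of that list were higher in each line. Without the block the other lists had H3K27ac calls in both directions. Other metalloproteases and TIMP had 1 higher and 1 lower of 4 in GFP cells, and 0 and 2 in Nur77 cells. ADAM and ADAMTS genes had 3 and 3 of 7, and 3 and 2. Regulators and partners had 4 and 1 of 8, and 4 and 2. In Pol II these lists had 2 and 0 of 3, 2 and 1 of 7, and 4 and 0 of 9 in GFP cells. In Nur77 cells they had 2 and 0, 2 and 1, and 5 and 0. Plaur, the urokinase receptor gene, had the smallest p for Pol II in GFP cells, at 3.36 ± 0.19 (adjusted p = 0.00015), and 2.80 ± 0.19 in Nur77 cells (adjusted p = 0.00016). Cd44, a hyaluronan receptor that can hold metalloproteases at the cell surface, rose in H3K27ac by 1.30 ± 0.06 and 1.21 ± 0.06 (adjusted p = 1.2e-08 and 2.2e-08). Its Pol II region, which overlapped a region called in input, rose by 3.62 ± 0.42 in GFP cells (adjusted p = 0.0014). Pol II over Spp1, the osteopontin gene, rose by 2.22 ± 0.23 in Nur77 cells (adjusted p = 0.00056) at a region that also overlapped an input region. H3K27ac over Cd9, a tetraspanin gene, rose by 1.04 ± 0.06 in GFP cells (adjusted p = 4.5e-08).

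Between the lines, 6 of 26 H3K27ac regions of these lists were higher and 4 lower in untreated Nur77 cells, where 15.9% and 15% of all regions were. With the block 7 were higher and 4 lower, in a fit that called 4291 of all 27094 tested regions higher and 4060 lower. After LPS 5 were higher and 8 lower, where 16.8% and 19.2% of all regions were. Itgav, an integrin subunit gene, was 1.21 ± 0.06 higher untreated (adjusted p = 1.4e-07) and 1.11 ± 0.06 higher after LPS (adjusted p = 2e-07). Cd44 was lower by -0.37 ± 0.06 and -0.45 ± 0.06 (adjusted p = 0.00053 and 0.00011), and Adamts1, a metalloprotease that cuts proteoglycans, by -0.67 ± 0.10 after LPS (adjusted p = 0.00022). HA gave 0 calls at 11 lead regions of these lists in limma (4.62% of all) and 1 higher and 1 lower with the block (20.4% and 20.1% of all). The same lists gave 0 of 24 Pol II calls between the lines in either condition in limma (0.17% of all tested Pol II regions untreated and 1.42% after LPS). With the block 1 was higher untreated, in a fit that called 467 of all 17081 regions higher and 561 lower. After LPS 2 were higher and 2 lower with the block (6.18% and 6.62% of all).

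Regions whose Pol II followed that of Mmp14 over the 8 libraries were ranked by Pearson's r of log2 values among 10906 other regions. The 3 nearest lay at Ubac2 with 1810041H14Rik (r = 0.997), Rrs1 with Adhfe1 (0.996) and Gm51914 (0.995). For the strongest Pol II region of Timp2 they lay at Zmiz2 (0.98), Srcin1 (0.962) and at Niban3, Pgls and Slc27a1 (0.956). The libraries share depth and the LPS contrast, so these values are a description.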

How the data were processed

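The analysis starts from HOMER peak lists deposited for 26 ChIP-seq libraries (6 HA, 8 Pol II, 8 H3K27ac and 4 input). The submitters' processing notes name the mm10 genome, HISAT2 2.1.0 and HOMER (version not given). Per the labels' protocols, HA ChIP used 2 mM DSG before 1% formaldehyde. The deposited signal is the normalized tag count per 10000000 mapped tags. HOMER was run per library and without input, per the file headers, with its factor setting for HA and its histone setting for the other targets. Per the file headers, 3 H3K27ac libraries (untreated GFP replicate 1, LPS GFP replicate 1 and untreated Nur77 replicate 1) lacked the option by which HOMER skips its local filter, and the tags of untreated HA replicate 3 were not marked as filtered. The deposited values are not whole reads, so no count test was run.

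Peaks of a target were merged where they shared 1 bp, and their tags were summed. Scaling used a trimmed mean of log ratios, leaving out 30% by ratio (M-values) and 5% by abundance (A-values), with factors of 0.574 to 1.33. Regions called in all libraries of a target were tested with limma 3.58.1 (R 4.3.3, trend) on log2 of scaled tags plus 1, over 11 comparisons, with Benjamini-Hochberg adjustment over all tested regions of each. Values of untested regions are scaled in the same way. The pipeline was tested on simulated data. Deviations from group means of equal replicate numbers correlated at 0.481 to 0.834 in HA, 0.347 to 0.631 in Pol II and -0.102 to 0.089 in H3K27ac. With 2 replicates per group, both numbers give the same value in Pol II and H3K27ac. The main fits did not use this pairing in any target, and the replicate block was fitted as an alternative. The labels do not name what a number stands for. The block result stands beside each result it changes.

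Named genes are all 10 members, the 3 called lead regions of the 4 other lists with the smallest p in each comparison, and the 3 regions with Pol II most like the metalloprotease and the inhibitor of highest signal. One gene that this rule names is not reported here. Members and lists were chosen with earlier results of these data known. The 4 lists were other matrix metalloproteases and the remaining TIMP, ADAM and ADAMTS metalloproteases, plasminogen activation and convertases, and regulators and partners of metalloproteases. Marker lists were for macrophage, fibroblast, neutrophil, T and B cell, endothelial and epithelial cells. Alternatives were the replicate block, no scaling, a pseudocount of 10, tags per base, no filter on called libraries, stricter peaks, merging up to 1 kb apart, leaving out input regions, and leaving out each library.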

Additional observations from a re-analysis of the deposited data

Results flagged for a closer look

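One result stood out because the LPS response of the 2 lines differed in the test of the difference itself. H3K27ac at the 3' end of Mmp14 (chr14:54439769-54449710) changed by 3.55 ± 0.10 (SE, log2) in GFP cells and by 2.74 ± 0.10 in Nur77 cells, a difference of -0.81 ± 0.15 (adjusted p = 0.035, limma). The Nur77 line started higher, at 97.0 ± 1.89 tags against 40.5 ± 3.19 (SD, n = 2), and its called peaks already covered 4.35 kb before LPS, against 1.62 kb in GFP cells. The call was lost in 7 of the 8 fits that left out a library (-0.66 to -0.96 over all 8), and as tags per base the difference was 0.42 (adjusted p = 0.46).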

How the results depend on the processing

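In counts of called regions, the replicate block gave 2 instead of 0 for HA and 1 instead of 0 for Pol II between lines after LPS, and the block without both HA replicate 3 libraries, chosen after seeing the data, gave 1 (Mmp14). The block also ended 1 H3K27ac call at Timp2 in LPS Nur77 cells (adjusted p = 0.056) and 1 between untreated lines (adjusted p = 0.061), and changed no other call. Replicate numbers did not pair the H3K27ac libraries. Without scaling, which put the median LPS change of all regions at -0.32 (GFP) and -0.33 (Nur77) in H3K27ac and at -0.15 and -0.40 in Pol II, H3K27ac LPS calls in GFP cells were 8 instead of 5. Over all tested HA regions, 6 were higher and 0 lower without scaling, against 367 and 152 with it. As tags per base, H3K27ac calls were 5 instead of 8 in Nur77 cells and 3 instead of 5 between lines after LPS. Without the filter they were 8 instead of 5 between lines after LPS, and Pol II between untreated lines gave 1 instead of 0. The 1 difference in response became 0 without scaling, with a pseudocount of 10, as tags per base and without the filter. Calls over fits that left out a library, where a group of 1 is assumed to vary like the others, ran from 0 to 1 (HA), 5 to 8 (H3K27ac, LPS in Nur77 cells) and 0 to 1 (H3K27ac response). Directions turned without scaling at Mmp2 (H3K27ac, LPS in GFP cells, -0.24, called lower) and at the Timp2 upstream region (-0.30), and as tags per base at the Mmp14 3' end (H3K27ac, untreated lines, -0.13, and response, 0.42). Testing regions without a peak in every library as well ended 7 calls at Mmp14 and Timp2 (adjusted p = 0.051 to 0.14). The causes were not tested. Of 988 values that passed in neither setting, 67 changed sign. With replicate numbers crossed in untreated H3K27ac, chosen after seeing the data, 4129 regions were higher and 3908 lower in the Nur77 line, against 4297 and 4057. A region with no peak in a library did not pass that library's peak call and has no value there, so Mmp8 and Mmp19 could not be tested.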

Other observations

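Beside Mmp8 on chromosome 9, H3K27ac over Mmp27, another metalloprotease gene, fell with LPS, by 1.45 ± 0.34 (SE, log2) in GFP cells and 1.30 ± 0.34 in Nur77 cells (adjusted p = 0.0034 and 0.0063, limma). Its region (chr9:7571916-7573954) lies past the far end of Mmp8 and within the span of Gm31751. Plat, the tissue plasminogen activator gene, rose in H3K27ac by 1.20 ± 0.35 in GFP cells and 2.16 ± 0.35 in Nur77 cells (adjusted p = 0.013 and 0.00025). Furin, a convertase that activates the Mmp14 precursor, rose by 0.68 ± 0.07 and 0.78 ± 0.07 (adjusted p = 8.1e-06 and 2.4e-06). These genes come from the lists named above and were chosen after their values were seen.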
